A study of Arabidopsis thaliana with 6 samples.

Results

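The genes described here encode NLR proteins, the intracellular immune receptors of plants, which combine a nucleotide-binding NB-ARC domain with leucine-rich repeats. They were taken from a list of 55 locus identifiers, of which 54 have a row in the expression table of 24487 genes; AT5G47260 was not analysed here. Genes averaging under 10 normalized counts across the libraries were not tested, which left 50 members. The list was drawn up with results of these data known, so counts over its members describe those members and do not measure the family as a whole. Normalized counts are reads per gene divided by a size factor of the library.

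Transcripts were measured by RNA sequencing in whole seedlings of Arabidopsis thaliana, the model crucifer. Sterilized seed on MS agar was chilled in the dark, then moved to 22 °C without light, and seedlings were taken after 4 days. The groups were 3 libraries labelled wild type and 3 labelled as the atino80-6 mutant. The labels do not give the natural accession of either line, the nature of the atino80-6 allele, whether it was backcrossed, or whether the replicates were separate cultures, so p-values measure only the spread between these samples. A difference in genetic background between the lines and an effect of the mutation cannot be told apart in any change given below. The mutant is named after INO80 (AT3G57300), the ATPase of a chromatin remodelling complex.

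An NLR protein is built from an N-terminal signalling domain, the NB-ARC domain, which switches between an inactive ADP-bound and an active ATP-bound form, and a repeat domain that takes part in sensing pathogen effectors or their action on host proteins. The N-terminal domain sorts the family into coiled-coil (CC), TIR and RPW8 types, and RPW8-type members act as helpers downstream of many sensors. Activation often ends in local cell death and salicylic acid signalling. Many NLR genes sit in tandem clusters of similar copies, and these clusters are among the most variable regions between natural accessions of the species.

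The libraries held between 18446028 and 24156610 reads. INO80, after which the mutant is named, was higher in the atino80-6-labelled libraries. The labels do not say what the allele does to its transcript. INO80 held 5586, 6173 and 5758 normalized counts in wild type against 28174, 33013 and 33322 in the atino80-6-labelled libraries. The log2 change was 2.43 ± 0.10 (SE; limma adjusted p = 2.8e-06), so every direction below rests on the labels as deposited. On the first principal component, wild type 1 and atino80-6 3 lay nearest to the opposite group. Among genes listed as markers of seedling tissues, all 3 tested green mesophyll genes were higher in the atino80-6-labelled libraries. Their summed level was 3821 to 4606 FPKM against 591 to 805 FPKM in wild type. The seedlings were grown without light, so these 3 genes cannot be read as a measure of green tissue. Of 4 embryo or seed markers 1 was higher, and their sum ranged from 146 to 1412 FPKM in the atino80-6-labelled libraries and from 129 to 480 FPKM in wild type. The root hair markers had 1 of 4 lower (6.26 to 13.6 against 11.2 to 28.5 FPKM). The phloem markers had 1 of 2 higher (50.5 to 52.9 against 33.4 to 36.6 FPKM). The guard cell markers had 1 of 3 higher (14.8 to 17.1 against 11.9 to 14.6 FPKM), and 0 of 3 xylem markers changed. Over all tested genes 17.7% were higher and 16.6% lower, and sets of 2 to 4 genes are too small to set against these shares. The part of these tissues in the NLR results was not tested. In whole seedlings a change in the number of cells of a type and a change in RNA per cell cannot be told apart.

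The P-loop is a short motif of the NB-ARC domain that binds the phosphates of the nucleotide. Its coding stretch is the same or nearly the same in some of the copies. The coding stretches below are from the RefSeq annotation of TAIR10.1, 5′ to 3′, each from 18 bases before to 18 bases after the motif, with the 24 bases that encode the motif in capitals. They were picked because the genes concerned moved in different directions or by different amounts.
AT1G61180: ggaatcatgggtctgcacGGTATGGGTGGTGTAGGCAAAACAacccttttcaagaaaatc
AT1G61190: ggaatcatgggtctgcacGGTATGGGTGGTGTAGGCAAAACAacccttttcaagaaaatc
AT1G61300: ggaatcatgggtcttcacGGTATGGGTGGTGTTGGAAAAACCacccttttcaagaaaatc
AT1G61310: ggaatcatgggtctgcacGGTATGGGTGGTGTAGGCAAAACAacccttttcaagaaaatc
RPP4: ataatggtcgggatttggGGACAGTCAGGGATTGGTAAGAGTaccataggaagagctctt
SNC1: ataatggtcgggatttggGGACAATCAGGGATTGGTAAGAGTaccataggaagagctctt
AT4G16920: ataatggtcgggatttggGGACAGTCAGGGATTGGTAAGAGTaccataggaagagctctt
RPP5: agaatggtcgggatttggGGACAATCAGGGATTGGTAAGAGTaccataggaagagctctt
AT5G46260: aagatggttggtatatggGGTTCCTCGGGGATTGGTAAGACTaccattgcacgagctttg
AT5G46490: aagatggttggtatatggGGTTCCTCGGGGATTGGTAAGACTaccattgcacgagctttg
Over these 60 bases AT1G61180, AT1G61190 and AT1G61310 differed at 0 positions from each other, and AT1G61300 differed from each of them at 4. RPP4 and AT4G16920 differed at 0 positions and so did AT5G46260 and AT5G46490, while SNC1 differed from RPP5 at 1. Over the aligned coding sequences RPP4 and AT4G16920 were 93.2% identical, and AT5G46260 and AT5G46490 were 90.5% identical. The stretch printed here is thus closer between these copies than their coding sequences are. The counting of reads that match several copies is not stated, so how reads divide between close copies is uncertain. As a measure of this, the percentage of shared windows is given below for many members. These are 50-base windows of a gene's transcripts that also occur in a transcript of another gene on the same strand.

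Of the 50 tested NLR genes 21 rose in the atino80-6-labelled libraries (42.0%), against 17.7% of all 20222 tested genes, and 8 fell (16.0%), against 16.6%. Together 58.0% of the members changed, and 34.2% of all genes. The remaining 21 did not pass the test. A change of at least 2-fold, that is a log2 change of at least 1 in size, was reached by 16 of the members that rose, where the background was 6.68%, and by 4 of those that fell, where it was 5.31%. The median log2 change of the tested members was 0.10, against 0.00 for all genes, and the median size of the change, whatever its sign, was 0.67 against 0.29. For 35 members the 3 atino80-6-labelled libraries did not overlap with wild type (background 48.3%). Of the tested members 4 (RPP4, AT5G46490, AT1G61300 and AT1G62630) had a wild type mean below 10 and passed the limit only through the atino80-6-labelled libraries, and RPS2 and AT5G46260 were below 10 in those libraries. The mean of 12.5 normalized counts of RPS2 was the lowest inside the limit. The members outside it, AT1G51480, AT4G10780, AT4G27190 and AT4G27220, had means between 1.06 and 4.12.

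**Figure D1:**
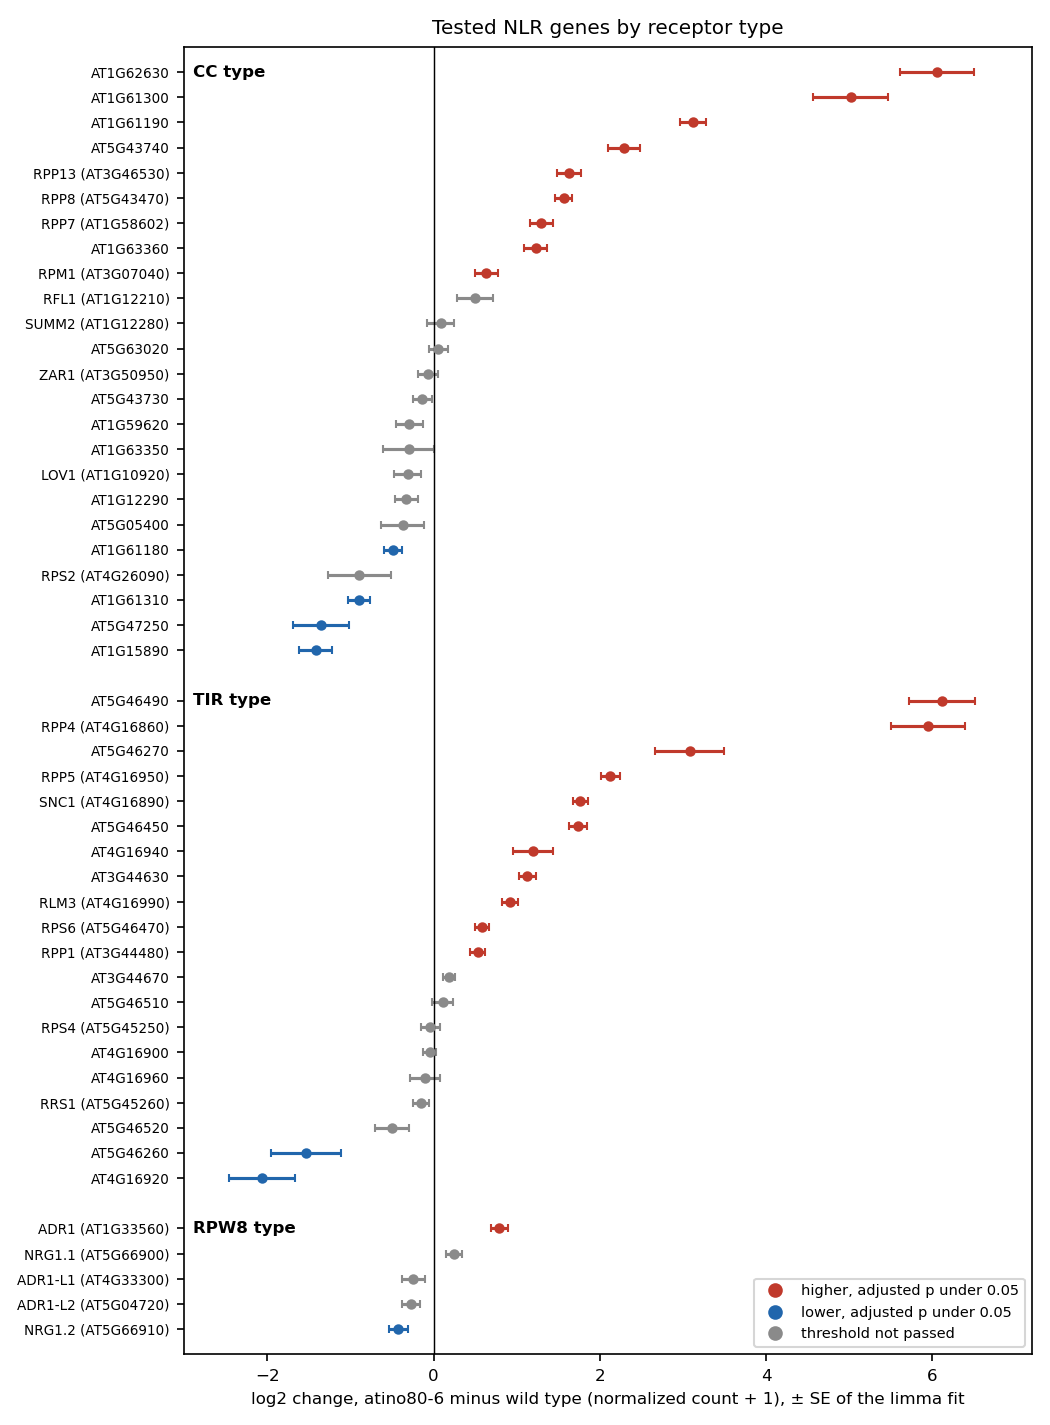
Log2 change (x axis, atino80-6 minus wild type, on normalized counts plus 1) of the tested NLR genes reported here, grouped by receptor type; bars are the standard error of the limma fit with 3 libraries per group. Changes run from -2.06 for AT4G16920 to 6.12 for AT5G46490. The rises farthest from 0 are those of AT5G46490, AT1G62630, RPP4 and AT1G61300, which were near 0 in wild type. These genes passed the limit on the mean only through the atino80-6-labelled libraries, and the size of their change depends on the pseudocount.

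The count of falls depended on the libraries. Without wild type 1 and atino80-6 3, limma called 21 members higher (background 21.9%) and 16 lower (background 21.7%; either direction 43.6%). Without wild type 3 it called 21 higher (13.3%) and 5 lower (11.5%; either direction 24.8%). The authors' deposited table also had 21 of the tested members higher (background 17.4% there) and 8 lower (16.5%), in the same direction for all 29. ZAR1, RRS1 and LOV1, described below, did not pass with all libraries. Without wild type 1 and atino80-6 3 they were among the members called lower (log2 change -0.27, -0.27 and -0.50, limma adjusted p = 0.021, 0.042 and 0.038). The left-out libraries are those nearest to the opposite group on the first principal component. Leaving them out widens the gap between the groups, so these calls do not establish a fall.

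CC-type receptors were the most numerous, with 25 tested members, of which 9 rose (36.0%, against 17.7% of all genes) and 5 fell (20.0%, near the background of 16.6%). The median log2 change was -0.07. Summed over the 29 in the table, the level per length was 98.4, 113 and 112 FPKM in wild type and 116, 116 and 127 FPKM in the atino80-6-labelled libraries.

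The closely related genes AT1G61180, AT1G61190, AT1G61300 and AT1G61310, with pairwise identities of 92.2% to 94.9% over their coding sequences, all changed, but in opposite directions. AT1G61190 held 60.4, 43.0 and 52.5 normalized counts in wild type against 453, 478 and 435 in the atino80-6-labelled libraries, a rise of 8.77-fold with a log2 change of 3.12 ± 0.15 (SE; limma adjusted p = 5.0e-06). AT1G61300 was near 0 in every wild type library (0.875, 4.88 and 1.75 normalized counts) and held 118, 96.6 and 87.6 in the atino80-6-labelled libraries, a log2 change of 5.02 ± 0.45. In neither gene did the groups come close to each other. AT1G61180, the most abundant of the 4, fell 1.41-fold from 1177, 1505 and 1404 to 885, 963 and 1044 normalized counts (log2 change -0.49 ± 0.11; adjusted p = 0.0080). AT1G61310 fell 1.87-fold from 219 ± 17.1 to 117 ± 9.01 normalized counts (SD over 3 libraries). The sum over the 4 genes came to 1438, 1787 and 1683 normalized counts in wild type against 1584, 1652 and 1676 in the atino80-6-labelled libraries. The means of these sums were 1636 ± 179 and 1637 ± 47.7 (SD, n = 3 each), a ratio of 1.00, so the total of the copies overlapped between the groups while each copy did not. Between 14.6% and 28.7% of the windows of each gene occurred in another gene.

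**Figure D2:**
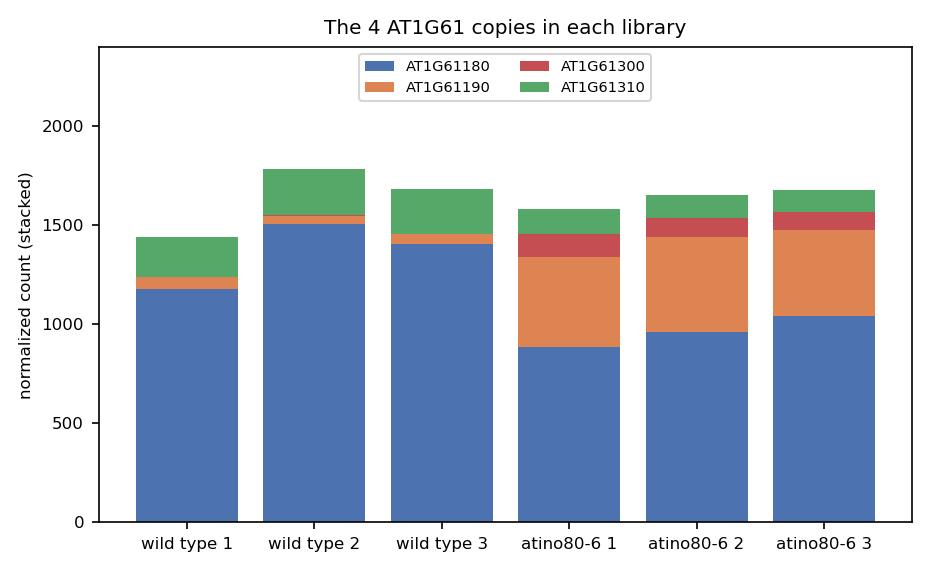
Normalized counts (y axis, stacked) of AT1G61180, AT1G61190, AT1G61300 and AT1G61310 in each of the 6 libraries. The total stays between 1438 and 1787, while AT1G61190 and AT1G61300 take up a larger part in the 3 atino80-6-labelled libraries.

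AT1G62630 and AT1G63360, whose coding sequences were 93.6% identical, both rose. AT1G62630 had 1 read in the 3 wild type libraries together and 82.9, 97.6 and 69.4 normalized counts in those labelled atino80-6, a ratio of 278 (exact 95% interval 49.4 to 11029, counting error only). AT1G63360 rose 2.35-fold from 131 ± 15.9 to 306 ± 23.3 normalized counts (SD over 3 libraries). Their relative AT1G63350 stood at a log2 change of -0.30 (adjusted p = 0.48). The sum over these 3 genes was 176, 195 and 177 normalized counts in wild type against 402, 447 and 439 in the atino80-6-labelled libraries, without overlap. Windows shared with another gene on the same strand came to 12.6% for AT1G62630, 11.0% for AT1G63360 and 1.53% for AT1G63350.

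SUMM2, which watches over a MAP kinase pathway, held 288, 220 and 213 against 301, 238 and 224 normalized counts, and the groups overlapped (log2 change 0.08; adjusted p = 0.72). RFL1 and AT1G12290 stood at 0.50 (adjusted p = 0.11) and -0.33 (adjusted p = 0.10). RPS2, which detects the loss of RIN4, was scarce in these seedlings, with 16.6, 13.7 and 19.2 normalized counts in wild type against 9.35, 5.98 and 10.2 in the atino80-6-labelled libraries (-0.90; adjusted p = 0.10). Antisense transcripts cover 100% of its windows and 86.4% of those of RFL1, and without a stated strand the reads of both cannot be told apart. RPM1, which responds to changes in RIN4, rose 1.55-fold from 132, 103 and 113 to 179, 178 and 182 normalized counts (0.63 ± 0.14; adjusted p = 0.0084).

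The CC-type receptors RPP13, RPP8 and RPP7, each known for resistance to the downy mildew oomycete, all rose. RPP13 held 127, 159 and 186 normalized counts in wild type against 486, 481 and 478 in the atino80-6-labelled libraries, a 3.06-fold rise (1.62 ± 0.14; adjusted p = 7.3e-05). RPP8 rose 2.95-fold, from 349, 391 and 310 to 1005, 1091 and 1005 normalized counts (1.56 ± 0.10; adjusted p = 1.5e-05). RPP7 rose 2.46-fold, from 752, 641 and 585 to 1321, 1738 and 1811 normalized counts (1.29 ± 0.14; adjusted p = 0.00019). The groups did not overlap for any of these 3 genes. RPP8 and RPP7 shared 15.2% and 13.1% of their windows with other genes on the same strand; RPP13 shared 0%, but 30.4% on the opposite strand. LOV1, a relative of RPP8 that confers sensitivity to a fungal toxin, stood at -0.31 (adjusted p = 0.17).

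Among the other CC-type genes, AT5G43740 rose 5.04-fold, from 22.7, 28.3 and 25.4 to 132, 133 and 119 normalized counts, while its neighbour AT5G43730 stood at -0.14 (adjusted p = 0.40). AT1G15890 fell 2.65-fold, from 239, 322 and 285 to 123, 77.7 and 118 normalized counts (-1.42 ± 0.20; adjusted p = 0.00090), with 0 windows shared. AT5G47250 fell 2.69-fold, from 30.6, 22.5 and 32.4 to 8.18, 9.96 and 13.7 normalized counts (-1.36 ± 0.34; adjusted p = 0.014), and its call was lost without wild type 3 (adjusted p = 0.067). ZAR1, which forms a pentameric channel when activated, was among the most abundant members and its groups overlapped, with 1145, 1458 and 1502 against 1262, 1200 and 1438 normalized counts (-0.07; adjusted p = 0.69). AT5G63020, AT1G59620 and AT5G05400 did not pass (0.05, -0.29 and -0.37). AT5G05400 passed as lower without wild type 1 (-0.66; adjusted p = 0.030), and AT1G59620 did so without atino80-6 3 (-0.48; adjusted p = 0.012).

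Of 20 tested TIR-type receptors 11 rose (55%, against 17.7% of all genes) and 2 fell (10%, against 16.6%), and the median of their log2 changes was 0.55. Their summed level was 60.3, 65.4 and 64.0 FPKM in wild type and 104, 98.2 and 99.9 FPKM in the atino80-6-labelled libraries, 1.59 times the wild type mean, and no library of the former reached the latter.

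The RPP5 cluster on chromosome 4 is a run of related TIR-type genes that includes SNC1. Of its 8 members 5 were higher (62.5%, against 17.7% of all genes) and 1 was lower (12.5%, against 16.6%). SNC1, whose overactivity causes constant defence and dwarfing, rose 3.41-fold, from 495, 516 and 496 to 1855, 1746 and 1542 normalized counts (1.76 ± 0.09; adjusted p = 5.0e-06). RPP4, a downy mildew resistance gene, was close to 0 in wild type, with 1.75, 9.76 and 3.50 normalized counts, and held 346, 327 and 274 in the atino80-6-labelled libraries, 63.1-fold more (log2 change 5.95 ± 0.45). RPP5 rose 4.40-fold from 169 ± 10.2 to 744 ± 75.7 normalized counts (SD over 3 libraries). In each of these 3 genes the lowest atino80-6-labelled library lay far above the highest wild type library. AT4G16940 rose 2.28-fold, and RLM3, a TIR gene without leucine-rich repeats that acts against fungi, rose 1.89-fold with 0 windows shared.

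AT4G16920 went the other way in the same cluster. It held 65.6, 227 and 143 normalized counts in wild type against 25.7, 31.9 and 33.0 in the atino80-6-labelled libraries, 4.80-fold lower (-2.06 ± 0.40; adjusted p = 0.0044), with wild type 1 the lowest of its group. AT4G16900 and AT4G16960 overlapped between the groups (-0.05 and -0.10; adjusted p = 0.67 and 0.70). AT4G16920 and RPP5 were 94.2% identical over the aligned coding sequence, and AT4G16940 and AT4G16960 were 96.1% identical. The windows shared with another gene on the same strand came to 43.9% for RPP5, 32.2% for AT4G16920, 27.0% for RPP4 and 18.2% for SNC1. For AT4G16960, AT4G16940 and AT4G16900 they came to 54.7%, 28.3% and 5.33%. Unlike the AT1G61 copies, the sum over the 8 genes differed between the groups, at 2214, 2403 and 2326 normalized counts in wild type against 4930, 4464 and 4363 in the atino80-6-labelled libraries, a ratio of 1.98. Of 5 tested other genes that lie between the first and last member of the cluster, 2 rose and 2 fell. Over all tested genes 17.7% rose and 16.6% fell, and a set of 5 genes is too small to set against these shares. AT4G16880, a leucine-rich repeat gene chosen after its values were seen, had 1 read in wild type and a mean of 36.6 normalized counts in the atino80-6-labelled libraries, a ratio of 121 (exact 95% interval 21.2 to 4822, counting error only). It is counted among the genes that rose, and passed the limit on the mean only through the atino80-6-labelled libraries.

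**Figure D3:**
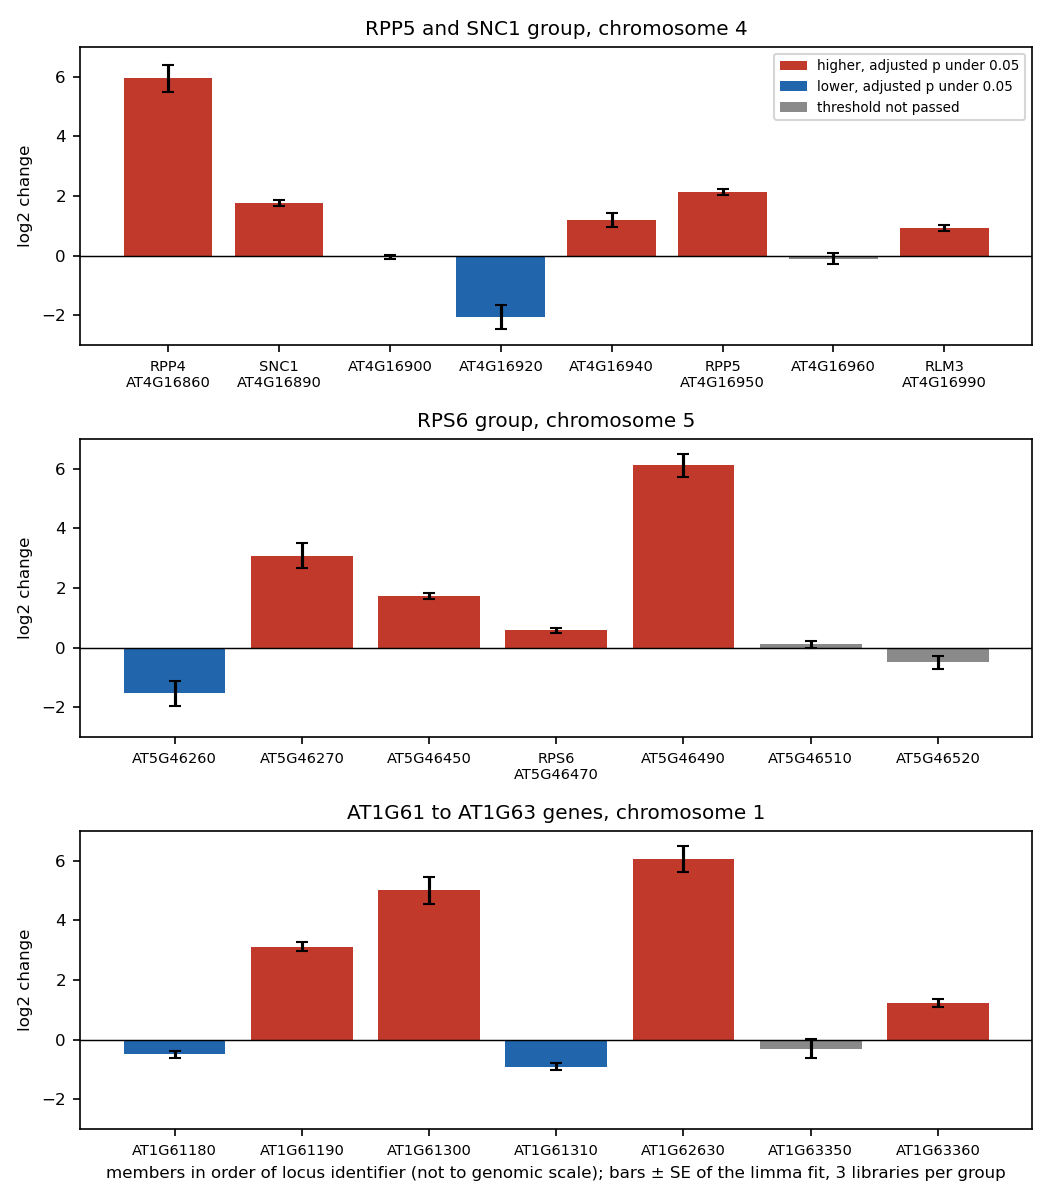
Log2 change (y axis, ± SE of the limma fit, 3 libraries per group) of the members of the RPP5 and RPS6 clusters and of the AT1G61 to AT1G63 genes, in order of locus identifier and not to genomic scale. Genes that rose, fell and did not pass lie side by side in each panel.

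The RPS6 cluster on chromosome 5 had 4 of 7 members higher (57.1%, against 17.7% of all genes) and 1 lower (14.3%, against 16.6%). RPS6, which recognizes a bacterial effector, rose 1.49-fold from 407, 455 and 411 to 620, 632 and 650 normalized counts (0.58 ± 0.09; adjusted p = 0.0011), with 0 windows shared. AT5G46450 rose 3.34-fold, from 145 ± 7.96 to 484 ± 35.4 normalized counts (SD over 3 libraries), also with 0 windows shared. AT5G46270 rose 7.97-fold, from 6.12, 21.5 and 19.2 to 120, 132 and 121 normalized counts. These 3 genes had no overlap between the groups. AT5G46490 had 0.875, 0.976 and 3.50 normalized counts in wild type against 159, 199 and 174 in the atino80-6-labelled libraries (log2 change 6.12 ± 0.39). AT5G46260, 90.5% identical to AT5G46490 over the aligned coding sequence, fell 2.95-fold from 21.9, 37.1 and 27.1 to 10.5, 4.98 and 13.7 normalized counts (-1.53 ± 0.42; adjusted p = 0.023). Its call was lost without wild type 2 (adjusted p = 0.094), wild type 3 (0.068) or atino80-6 2 (0.063). AT5G46510 and AT5G46520, 95.9% identical, did not pass (0.11 and -0.50; adjusted p = 0.53 and 0.097), but AT5G46520 passed as lower without atino80-6 3 (-0.65; adjusted p = 0.041). Windows shared with another gene on the same strand came to 25.2% for AT5G46490, 21.3% for AT5G46260 and 4.77% for AT5G46270. For AT5G46510 and AT5G46520 they came to 48.7% and 66.7%. The sum over the 7 genes was 1026, 1119 and 998 normalized counts in wild type against 1819, 1889 and 1872 in the atino80-6-labelled libraries, a ratio of 1.78. Among 14 tested other genes between the first and last member, 1 rose (7.14%, against 17.7% of all genes) and 4 fell (28.6%, against 16.6%).

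In the RPP1 group on chromosome 3, with identities of 91.6% to 93.5%, RPP1 rose 1.45-fold from 858, 885 and 833 to 1396, 1147 and 1192 normalized counts (0.53 ± 0.09; adjusted p = 0.0024) and AT3G44630 rose 2.19-fold from 336, 343 and 385 to 697, 784 and 844. AT3G44670 did not pass, although its groups did not overlap (0.18; adjusted p = 0.086). Windows shared with another gene on the same strand came to 43.7% for RPP1, 27.2% for AT3G44630 and 36.9% for AT3G44670. The neighbouring receptors RPS4 and RRS1, which work as a pair in detecting bacterial effectors, overlapped between the groups. RPS4 held 664, 844 and 844 against 780, 702 and 798 normalized counts (-0.04; adjusted p = 0.82), and RRS1 held 556, 619 and 607 against 503, 516 and 591 (-0.15; adjusted p = 0.27).

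**Figure D4:**
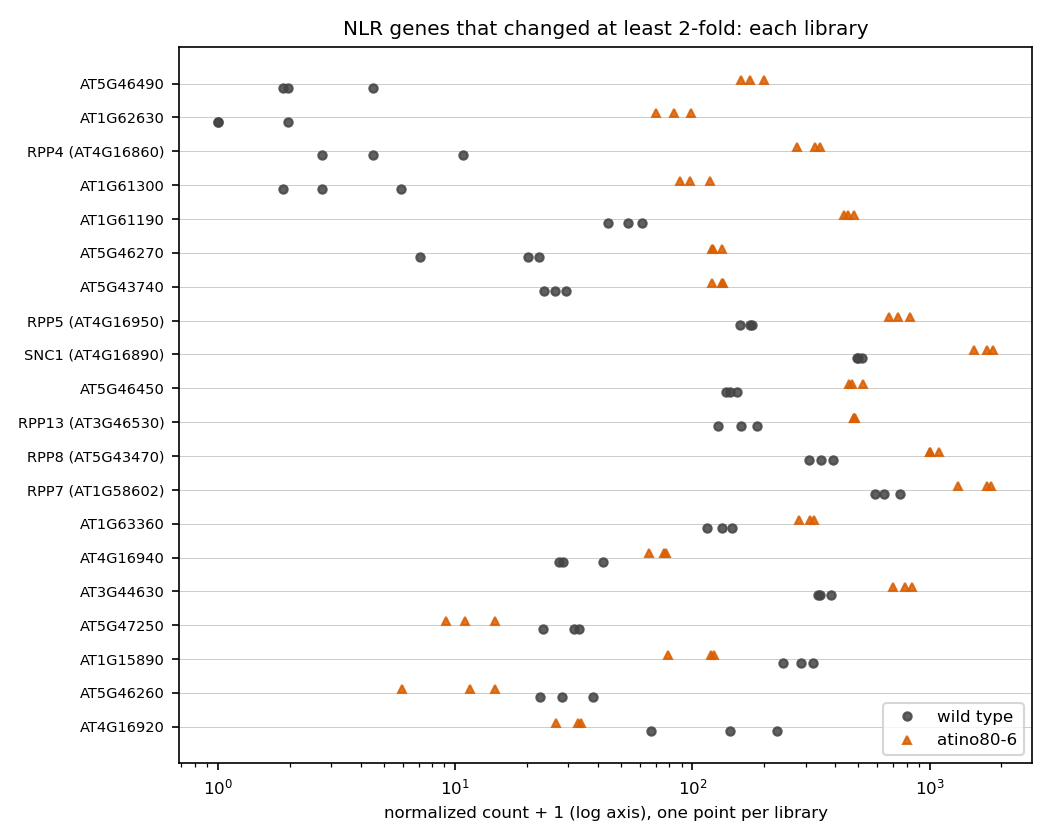
Normalized counts plus 1 (x axis, log scale) in each wild type library (circles) and each atino80-6-labelled library (triangles) for the 20 NLR genes that changed at least 2-fold. Circles and triangles do not overlap in any of these genes, which were chosen for passing the test with a change of this size. Over all tested genes the groups do not overlap for 48.3%. In every wild type library 4 of the genes shown lie below 10 normalized counts.

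Of 5 RPW8-type helpers 1 rose (20.0%, near the 17.7% of all genes) and 1 fell (20.0%, near the 16.6% of all genes). ADR1 rose 1.73-fold, from 238, 249 and 276 to 461, 419 and 442 normalized counts (0.79 ± 0.10; adjusted p = 0.00053). ADR1-L1 held 2219, 3172 and 3080 against 2290, 2192 and 2602 normalized counts, and ADR1-L2 held 1507, 1938 and 1940 against 1508, 1392 and 1545. In both, the groups overlapped and wild type 1 was the lowest of its group. They did not pass with all libraries (-0.24 and -0.27; adjusted p = 0.21 and 0.090), but passed as lower without wild type 1 (-0.41 and -0.39; adjusted p = 0.011 and 0.0071). NRG1.1 stood at 0.25 (486, 519 and 474 against 530, 605 and 621 normalized counts; adjusted p = 0.075), and passed as higher without atino80-6 1 (0.31; adjusted p = 0.045). NRG1.2 fell 1.35-fold, from 472, 617 and 608 to 417, 419 and 419 normalized counts (-0.42 ± 0.12; adjusted p = 0.022), and its call was lost without wild type 2 (adjusted p = 0.089), wild type 3 (0.090), atino80-6 1 (0.056) or atino80-6 2 (0.067). The summed level of the 5 helpers was 58.0, 74.8 and 73.6 FPKM in wild type and 61.7, 59.8 and 65.8 FPKM in the atino80-6-labelled libraries, which overlap.

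Levels per length can be compared between genes in FPKM. The order in wild type was led by ADR1-L2 at 26.7 FPKM, ADR1-L1 at 21.9, ZAR1 at 20.6 and AT1G61180 at 20.0. The SDs over the 3 libraries were 3.71, 4.08, 2.93 and 2.46 FPKM, and the steps from ADR1-L1 to ZAR1 and from ZAR1 to AT1G61180 were smaller than these. ADR1-L2 lay above ADR1-L1 in every wild type library, at 22.4, 28.8 and 28.8 FPKM against 17.2, 24.6 and 23.9. In the atino80-6-labelled libraries the order began with ADR1-L2 at 22.0 FPKM, ZAR1 at 19.6, ADR1-L1 at 18.3 and SNC1 at 16.3, where SNC1 had been at 4.79 FPKM in wild type. Levels below 1 FPKM were found for 13 of the 50 tested members in wild type and for 7 in the atino80-6-labelled libraries, and the median member stood at 2.67 and 4.53 FPKM.

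**Figure D5:**
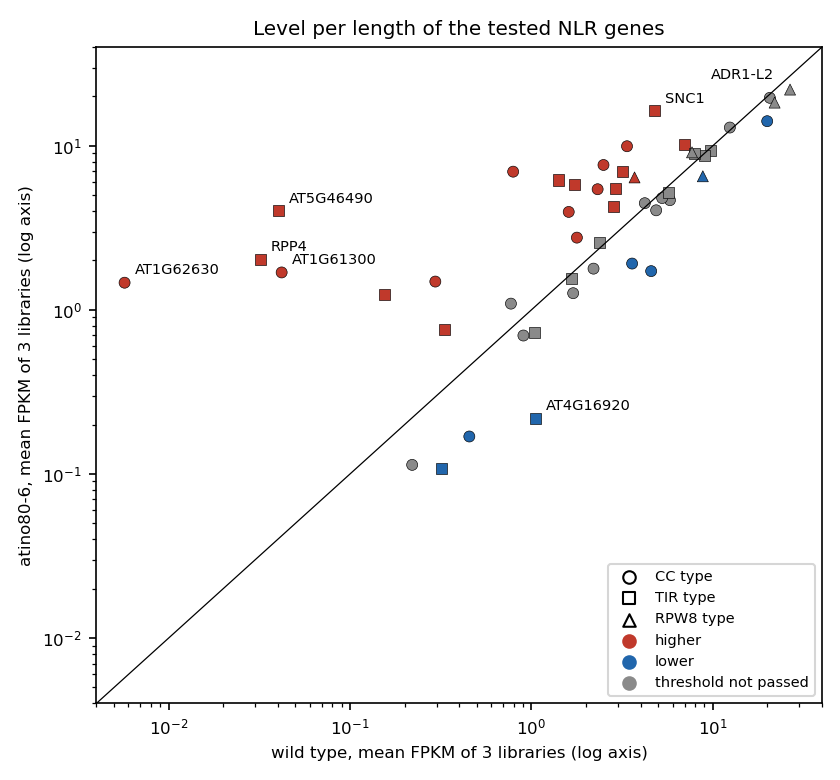
Mean FPKM of each tested NLR gene reported here in wild type (x axis) and in the atino80-6-labelled libraries (y axis), both on log scales, 3 libraries per mean; the line marks equal levels. Abundant members such as ADR1-L2 lie near the line, and the largest rises start below 0.05 FPKM in wild type.

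Of the 18 tested members with 0 same-strand windows shared, 5 rose, 3 fell and 10 did not pass, where 17.7% of all genes rose and 16.6% fell. Some of them share windows on the opposite strand, RPP13 among those that rose. Of the 28 with at most 10% shared on the same strand, 8 rose, 4 fell and 16 did not pass.

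Other genes of the family were counted in the same way. The RefSeq products name 95 other NB-ARC genes in the table, and of 84 tested 14 rose (16.7%, against 17.7% of all genes) and 32 fell (38.1%, against 16.6%), with a median log2 change of -0.29. Summed over these 95 genes the level was 271, 299 and 285 FPKM in wild type and 249, 246 and 266 FPKM in the atino80-6-labelled libraries. The difference between the listed members and these genes was not tested, since the members were chosen with their results known.

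Of 16 tested partners of the receptors 0 rose and 5 fell (31.2%), where 17.7% of all genes rose and 16.6% fell. EDS1B, a close copy of EDS1, averaged 243 ± 42.5 normalized counts in wild type against 58.9 ± 11.8 in the atino80-6-labelled libraries (SD, n = 3 each), 4.13-fold lower (limma adjusted p = 0.00015). SAG101, which pairs with EDS1 to activate NRG1 helpers, fell 2.54-fold from 423 ± 41.1 to 167 ± 13.9 (adjusted p = 7.9e-05), and EDS1, the hub of TIR-type signalling, fell 1.83-fold (adjusted p = 0.0052). The other calls, named after their values were seen, were RIN4 (-0.65; adjusted p = 0.0012) and the co-chaperone gene SGT1B (-0.26; adjusted p = 0.044), whose call was lost without any library except wild type 1. Of 6 tested repressors of NLR level or activity 1 rose (16.7%, near the 17.7% of all genes) and 0 fell: SRFR1, an adaptor that restrains SNC1, stood at 0.28 (adjusted p = 0.020), and its call was lost without wild type 3 (0.054), atino80-6 1 (0.068) or atino80-6 2 (0.077). Of 12 factors needed for SNC1 or RPP7 output 1 rose and 1 fell (8.33% each, below the shares of all genes): MOS7, a nucleoporin, rose (0.65; adjusted p = 0.0083) and MOS2, an RNA-binding protein, fell (-0.36; adjusted p = 0.0086). CPR1, the F-box protein that targets SNC1 for degradation, stood at 0.03 (adjusted p = 0.79).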

How the data were processed

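RNA was sequenced from 6 libraries of dark-grown seedlings with a TruSeq kit, per the labels' protocols. The submitters' processing notes name HISAT2 and featureCounts, then DESeq2, besides FastQC, cutadapt, SAMtools and deepTools, and the build TAIR10; the annotation and strand setting are not given in the sources used here. The authors deposited FPKM values per library, scaled between libraries, and a DESeq2 comparison that holds, per the file headers, a mean signal, log2 fold changes with their error, a score (change over error) and p-values. The design assumed normalized counts; these were rebuilt from FPKM, scaled gene by gene so that the mean equals the deposited mean signal. With the size factors removed, 146922 of 146922 values came out as whole reads (tolerance 0.01).

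Genes with a mean of at least 10 were fitted with limma 3.58.1 in R 4.3.3 on log2(normalized count + 1), with genotype as the term, empirical Bayes with a trend, two-sided, and Benjamini-Hochberg adjustment over all 20222 genes (threshold 0.05). Each log2 change has the fit's standard error; folds are ratios of group means. Where a group had 1 to 3 reads, the ratio of reads has an exact interval. The script was tested on simulated data. The values of 1 tested member are not reported here, in text or figures, though it is part of the counts and sums over members. The members, lists and the rule for named genes were chosen with earlier results of these data known. The rule gave full values for members that changed at least 2-fold, for the best known members and helpers, and for up to 3 genes of each other list.

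Of 24487 identifiers 24255 (99.1%) matched the RefSeq annotation of TAIR10.1, which gave products, gene order and coding sequences by identifier; its coordinates are not printed because the build differs in name from TAIR10. Coding sequences were aligned with Biopython 1.88. Tables were made in Python 3.11.15 with pandas 2.3.3, numpy 2.4.6 and scipy 1.17.1, and figures with matplotlib 3.10.9. The fit was repeated with other pseudocounts (0.5, 5), without the filter, with a minimum mean of 50, with equal library totals, quantile normalization, limma voom on recovered reads, a replicate block, each library left out, and wild type 1 and atino80-6 3 left out together.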

Additional observations from a re-analysis of the deposited data

How the results depend on the processing

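Over 15 alternatives, 26 of the 29 members that changed passed the threshold in every alternative that tested them, 0 of the 29 changed sign, and AT5G47250, AT5G46260 and NRG1.2 lost their call without single libraries. Members that rose numbered 20 to 22 in every alternative. Members that fell numbered 5 to 11 with single libraries left out and 16 without wild type 1 and atino80-6 3 together. Falls of at least 2-fold numbered 2 to 4 with single libraries left out and 2 with a minimum mean of 50, which left 45 members to test. Of the 21 members that did not pass, 9 passed in some alternative. Repeat numbers did not pair the samples (correlations of same-numbered libraries 0.03, -0.19 and -0.10), and with the replicate block 21 members were higher and 8 lower, as without it; SGT1B and SRFR1 lost their calls (adjusted p = 0.072 and 0.056). With a pseudocount of 5 the log2 changes of AT1G62630, AT1G61300, RPP4 and AT5G46490, which had few wild type reads, were 4.04, 3.84, 5.08 and 4.76. A count of 3 reads in a library corresponded to 2.62 to 3.50 normalized counts, which limits what can be said of genes near 0.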

Other observations

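NB-ARC genes outside the list, named here after their values were seen, included large changes of both directions. WRR4, a TIR-type gene for white rust resistance, held 19.2, 20.5 and 14.9 normalized counts in wild type against 403, 441 and 340 in the atino80-6-labelled libraries, a log2 change of 4.37 ± 0.19 (limma adjusted p = 3.1e-06). Its neighbour in identifier, AT1G56520, rose 3.97-fold, and AT4G19530 rose 5.10-fold. The TIR-type gene AT2G17050 held 15.7, 25.4 and 24.5 normalized counts in wild type against 0 reads in the 3 libraries labelled atino80-6. The CC-type gene AT1G58410 fell 3.96-fold, from 459, 533 and 501 to 117, 120 and 141 normalized counts.

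Of 10 tested genes of salicylic acid output 2 rose (20.0%, near the 17.7% of all genes) and 4 fell (40%, against 16.6%). AIG1, counted among those that rose, passed the limit on the mean only through the atino80-6-labelled libraries. PR1, the classical marker of this pathway, averaged 12.7 ± 7.91 normalized counts in wild type against 177 ± 94.1 in the mutant-labelled group (SD over 3 libraries; limma adjusted p = 0.00070), and AIG1 had 1 read in wild type and a mean of 22.6 normalized counts in the atino80-6-labelled libraries, a ratio of 74.9 (exact 95% interval 13.0 to 3007, counting error only). The monooxygenase gene FMO1 fell 3.62-fold (adjusted p = 0.040), a call that was lost without wild type 2 or 3, without atino80-6 1 or 2, and with limma voom (adjusted p = 0.055 to 0.13). The other falls were CBP60G, a regulator of salicylic acid synthesis (-1.58), the synthesis gene ICS1 (-0.94) and the receptor gene NPR1 (-0.29), the last of which lost its call without any library except wild type 1 or atino80-6 3.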
